A study of Homo sapiens with 12 samples.

Results

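The genes described here are the regulators and targets of the hypoxia-inducible factors (HIFs) that lie outside glycolysis: the HIF subunits, the enzymes that sense oxygen, and targets in mitophagy, collagen processing, histone demethylation, secretion and transcription. Members were selected on level as the rows of the deposited count table that carried 1 of 36 listed gene symbols and had a mean of at least 0.5 CPM (counts scaled to library size) over all 12 libraries. This left 35 of the 23615 genes in the table, and 35 of the 16005 genes that passed the filter on low counts for testing. They were thus chosen by their mean level, and the symbols were listed with earlier results of these data in view. ANKRD37 was the member just inside the limit, at a mean of 1.34 ± 0.279 CPM (SD, n = 6) in control cells and 1.01 ± 0.242 CPM (SD, n = 6) in the other line. CA9, a cell-surface carbonic anhydrase, was the symbol outside it, with at most 1 read in any library.

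A HIF is a pair of proteins, an alpha subunit whose stability depends on oxygen and the constant partner ARNT. When oxygen is present, prolyl hydroxylases of the EGLN family mark the alpha subunit, the VHL ubiquitin ligase binds the mark, and the protein is degraded. When it escapes degradation, the pair binds a short DNA motif near genes for low-oxygen metabolism, mitophagy, matrix building and blood vessel growth, and also raises some of its own hydroxylases.

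RNA was sequenced from HEK293T cells, a human embryonic kidney line, after removal of ribosomal RNA. The question in the series title concerns how HuR, an RNA-binding protein encoded by ELAVL1, shapes the transcriptome under electrophiles and oxidants. A lentivirus delivered a single hairpin to each line before selection with puromycin: shControl cells carry a control hairpin, and shHuR cells a hairpin against ELAVL1. Each line was left untreated, given 25 µM of an alkyne form of the lipid aldehyde 4-hydroxynonenal (HNE) for 18 h, or given 225 µM hydrogen peroxide (H2O2) for 18 h, with 2 biological replicates in each of the 6 groups. The protocols name no low-oxygen incubation. Each line is 1 selected population, so the hairpin and the population cannot be told apart.

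Total counts per library ranged from 24855946 to 29907256. The hairpin matches ELAVL1 alone in the reference transcripts through the 21-base sequence below, shown because every line comparison rests on it.
hairpin target in ELAVL1: cccatcacagtgaagtttgca
ELAVL1 was lower in all 6 shHuR libraries than in any shControl library, at 71.3 ± 2.01 CPM (SD, n = 6) against 93.1 ± 4.91 CPM (SD, n = 6), so the lines compared differ by a partial loss of this RNA (edgeR adjusted p = 2.60e-06). Of the markers of the HEK293 line, VIM, LIN28B, NEFL, NEFM, KRT8 and KRT18 were present and PAX2 was low, at 0.326 CPM in shControl cells. Markers of blood, liver, fibroblasts and endothelium (PTPRC, CD3E, HBB, ALB, DCN, COL1A2, PECAM1 and CDH5) were at or near 0 in both lines. The HEK293 markers themselves differed between the lines: NEFM was higher in shHuR cells (log2 fold change 1.10), and VIM (-0.37), LIN28B (-0.38), NEFL (-0.47) and KRT8 (-0.38) were lower. Their part in the results below was not tested. In bulk RNA, a lower level in every cell and fewer cells with a high level cannot be told apart.

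The core of the HIF-binding motif is ACGTG or GCGTG. It was searched on both strands of a 300-base window around a single annotated start of each gene (RefSeq, GRCh38.p14). Other starts of the same gene were not searched. A window was given for 27 of the 35 members. There was none for VHL, BNIP3L, VEGFA, ZNF395, NDRG1, HILPDA, ANKZF1 and FUT11. ACGTG was found in 16 of the 27 windows (59.3%), against 25.6% of the 11138 windows of tested genes and 21.6% of all 27305 windows. Among the 20 target genes with a window, which leaves out the subunits and oxygen sensors, ACGTG was found in 14 (70.0%). GCGTG was found in 51.9% of the members' windows and in 49.5% of those of tested genes. The palindrome CACGTG counts on both strands. The members' windows also had a higher median content of G and C (69.3%, against 65.0% in tested genes), and a match describes letters, not a bound site.

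The stretches below, 80 bases each on the gene's own strand, hold the motif in genes whose levels are given later, with each match in capitals. They run from 145 to 66 bases before the PPFIA4 start (chr1:203026346-203026425), 245 to 166 before BHLHE40 (chr3:4979192-4979271), 170 to 91 before MIR210HG (chr11:568548-568627), 164 to 85 before BNIP3 (chr10:131982008-131982087), 124 to 45 before P4HA1 (chr10:73096911-73096990), and 80 to 1 before EGLN1 (chr1:231422288-231422367) and KDM3A (chr2:86441291-86441370).
PPFIA4: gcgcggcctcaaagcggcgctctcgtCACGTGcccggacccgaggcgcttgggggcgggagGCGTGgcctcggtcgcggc
BHLHE40: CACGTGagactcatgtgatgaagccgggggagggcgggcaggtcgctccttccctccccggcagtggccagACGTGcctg
MIR210HG: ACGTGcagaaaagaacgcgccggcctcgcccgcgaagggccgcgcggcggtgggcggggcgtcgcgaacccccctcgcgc
BNIP3: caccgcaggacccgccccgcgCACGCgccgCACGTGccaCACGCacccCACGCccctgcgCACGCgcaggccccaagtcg
P4HA1: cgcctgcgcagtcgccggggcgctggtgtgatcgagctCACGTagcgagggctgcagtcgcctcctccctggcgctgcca
EGLN1: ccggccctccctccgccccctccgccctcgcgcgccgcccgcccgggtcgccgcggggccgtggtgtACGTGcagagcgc
KDM3A: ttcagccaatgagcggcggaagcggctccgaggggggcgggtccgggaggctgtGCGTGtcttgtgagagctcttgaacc
The BNIP3 stretch holds the most matches of the 7, and PPFIA4, BHLHE40 and BNIP3 hold the palindrome. EGLN3, whose level differed strongly between the lines, has neither motif in its window, which says only that these letters are not there.

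The comparison of the lines asks how loss of ELAVL1 RNA goes with the level of each gene. Averaged over the 3 treatments, most of the listed HIF target genes were lower in shHuR than in shControl cells. The RNAs of the HIF subunits themselves differed by little. As the symbols were listed with earlier results of these data in view, the counts below describe this list and not HIF targets at large. Of the 35 members, 28 differed between the lines at an adjusted p under 0.05 (edgeR quasi-likelihood test, treatment as covariate), 26 of them lower and 2 higher in shHuR cells. The background was 29.9% of all genes called, 15.9% lower and 14.1% higher. All 23 called target genes were lower. The median log2 fold change of the members was -0.35, against -0.00 over all genes tested. In 20 of the 35 members every shHuR library was below every shControl library, a pattern found in 6.84% of all genes, and no member had every shHuR library above (5.25% of all genes). The remaining 15 members overlapped.

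**Figure D1:**
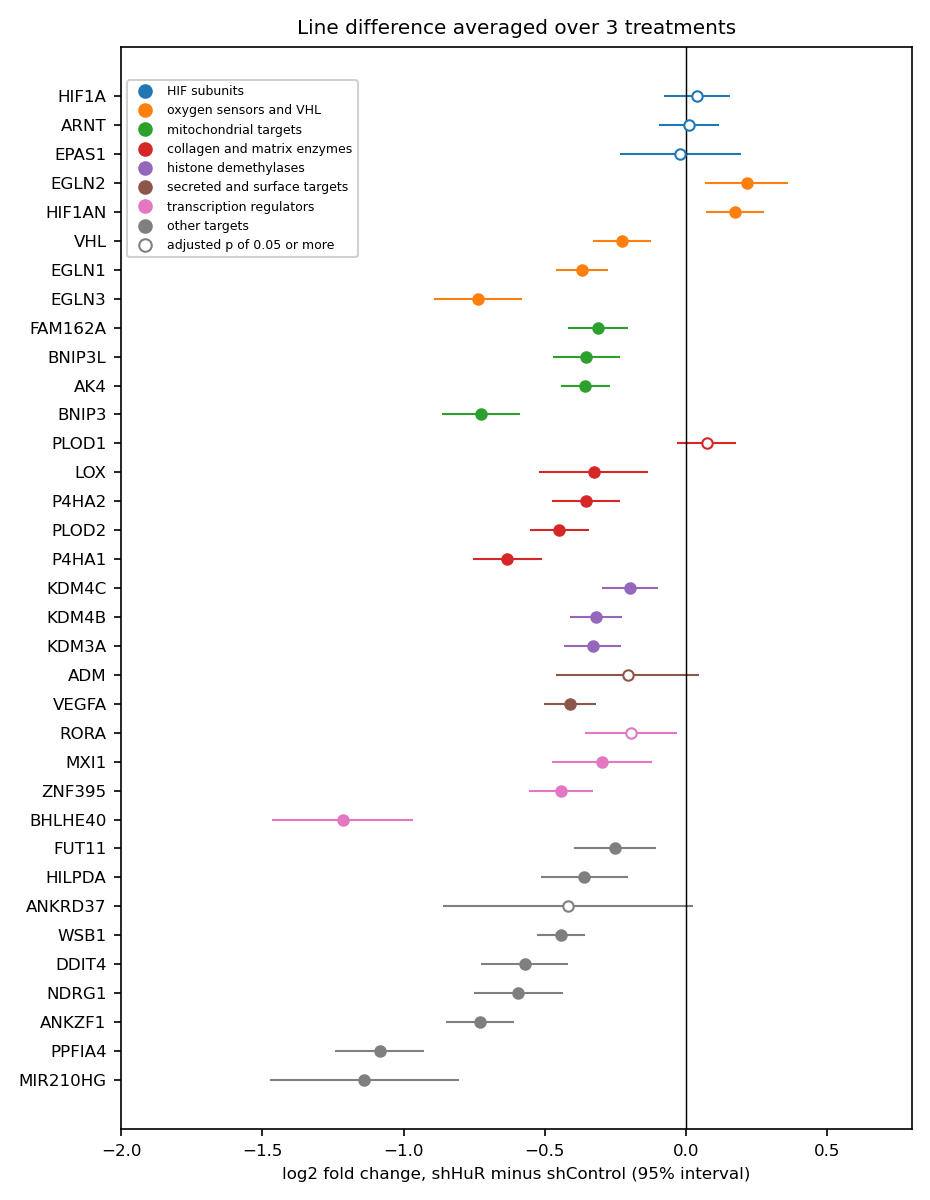
Log2 fold change of each of the 35 genes, shHuR minus shControl, averaged over the 3 treatments, with its 95% confidence interval; colours mark the role and open circles an adjusted p of 0.05 or more. The 3 HIF subunits lie near 0, while BHLHE40, MIR210HG and PPFIA4 lie below -1.

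Per length of transcript, the members spanned a wide range of levels in shControl cells. On the authors' FPKM scale (read density scaled to transcript length and library size), DDIT4 (136 FPKM), FAM162A (114 FPKM) and BNIP3 (102 FPKM) were highest. EPAS1 (1.83 FPKM), ANKRD37 (1.79 FPKM) and LOX (2.35 FPKM) were lowest. HIF1A stood at 20.2 FPKM and ARNT at 15.1 FPKM, so of the alpha subunits HIF1A was the one with the higher RNA level in these cells.

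The RNAs of the 3 HIF subunits were not called between the lines. HIF1A, the alpha subunit of HIF-1, was at 82.6 and 79.2 CPM in untreated shControl replicates, 84.8 and 70.9 CPM under HNE and 73.5 and 84.9 CPM under H2O2, and at 71.9 and 78.9, 82.7 and 86.0, and 86.4 and 84.1 CPM in the same order in shHuR cells. The libraries of the lines were intermixed, with a log2 fold change of 0.04 (95% interval -0.08 to 0.16, edgeR adjusted p = 0.633). EPAS1, which encodes the alpha subunit of HIF-2, was at 9.63 and 11.4 CPM untreated, 9.34 and 8.83 CPM under HNE and 8.42 and 8.31 CPM under H2O2 in shControl, and at 9.16 and 7.67, 8.10 and 10.0, and 9.50 and 10.6 CPM in shHuR. Its lines overlapped on average (-0.02, 95% interval -0.23 to 0.19, edgeR adjusted p = 0.904). Within H2O2 both shHuR libraries were above both shControl libraries and in untreated cells both were below. The H2O2 estimate differed between the lines by 0.59 (SE 0.213, unadjusted p = 0.0147), which missed the threshold after adjustment over all genes (edgeR adjusted p = 1.000).

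ARNT, the shared partner, was at 75.1 and 73.7 CPM untreated, 78.1 and 65.7 CPM under HNE and 69.9 and 70.3 CPM under H2O2 in shControl. In shHuR it was at 66.3 and 71.9, 76.3 and 76.9, and 69.0 and 76.1 CPM. These ranges lay on top of each other (0.01, 95% interval -0.10 to 0.12, edgeR adjusted p = 0.899). The intervals of HIF1A and ARNT leave room for differences of up to 0.16 and 0.12 in log2 between the lines.

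The oxygen sensors and VHL split in direction: EGLN1, EGLN3 and VHL were lower in shHuR cells, and HIF1AN and EGLN2 higher. EGLN3, a prolyl hydroxylase that HIF itself induces, was at 18.9 and 20.4 CPM untreated, 18.5 and 20.1 CPM under HNE and 20.9 and 16.8 CPM under H2O2 in shControl, and at 11.8 and 12.4, 11.6 and 12.1, and 9.58 and 11.9 CPM in shHuR. The highest shHuR library was below the lowest shControl library, and the mean fell by 40.0% (log2 fold change -0.74, SE 0.0738, edgeR adjusted p = 1.46e-06). EGLN1, the main hydroxylase of HIF-1 alpha in most cells, was at 256 and 248 CPM untreated, 270.4 and 235 CPM under HNE and 242 and 240.5 CPM under H2O2 in shControl, and at 201 and 194, 210.5 and 199, and 169 and 185 CPM in shHuR. The lines did not overlap, and the 2 lowest libraries were the H2O2-treated shHuR replicates (-0.37, SE 0.0436, edgeR adjusted p = 8.96e-06). VHL, which recognises hydroxylated HIF, was at 259 and 265 CPM untreated, 246 and 301 CPM under HNE and 267 and 249 CPM under H2O2 in shControl, and at 243 and 233, 219 and 218, and 216 and 227 CPM in shHuR. All shHuR libraries were lower, though the closest libraries were nearly level, at 243 and 246 CPM (-0.23, SE 0.0488, edgeR adjusted p = 0.00211).

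EGLN2, the third hydroxylase of the family, went the other way in untreated cells. It was at 35.0 and 35.2 CPM untreated, 40.4 and 46.6 CPM under HNE and 38.4 and 40.1 CPM under H2O2 in shControl, and at 49.3 and 46.9, 44.1 and 40.0, and 45.6 and 47.0 CPM in shHuR. Untreated shHuR libraries were above all shControl libraries, while with HNE the lines overlapped. The line difference was 0.45 in untreated cells (SE 0.0880, edgeR adjusted p = 0.00747), -0.05 with HNE (edgeR adjusted p = 0.786) and 0.24 with H2O2 (edgeR adjusted p = 0.120), and 0.21 on average (edgeR adjusted p = 0.0268). The change of the HNE estimate between the lines was -0.50 (SE 0.124, unadjusted p = 0.00123, edgeR adjusted p = 0.712). EGLN2 is the member with fractional deposited values, in 6 libraries. A readthrough gene that joins RAB4B and EGLN2 is also listed in the table, and how reads were divided between the entries was not tested, so the level of EGLN2 is uncertain. Its average call was lost without any of 5 libraries, both untreated shControl replicates, both untreated shHuR replicates or replicate 2 of the H2O2-treated shHuR group (adjusted p from 0.0566 to 0.0783).

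HIF1AN, the asparagine hydroxylase that blocks HIF's coactivator contact, averaged 72.2 ± 4.75 CPM over shControl and 81.5 ± 3.78 CPM over shHuR libraries (SD, n = 6 each). It was higher by 0.17 on average (edgeR adjusted p = 0.0130), with lines that overlapped by the HNE-treated shControl replicate 2 (77.2 CPM) and the H2O2-treated shHuR replicate 2 (77.1 CPM).

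All 4 mitochondrial targets were lower in shHuR cells. BNIP3, a mitophagy receptor of the outer mitochondrial membrane, was at 145 and 146 CPM untreated, 145 and 129 CPM under HNE and 138 and 129.9 CPM under H2O2 in shControl, and at 104 and 88.4, 86.7 and 80.8, and 63.6 and 83.7 CPM in shHuR. Every shHuR library was below every shControl library, and the lowest of all was an H2O2-treated shHuR replicate (log2 fold change -0.72, SE 0.0656, edgeR adjusted p = 4.64e-07). Its promoter window holds the cluster of motifs printed above. BNIP3L, the related mitophagy receptor NIX, had 75.8 ± 3.80 CPM on average over shControl libraries against 59.4 ± 5.71 CPM over shHuR libraries (SD, n = 6 each; -0.35, edgeR adjusted p = 0.000156). AK4, a mitochondrial adenylate kinase, had 197 ± 9.49 against 154 ± 8.49 CPM (SD, n = 6 each; -0.36, edgeR adjusted p = 5.89e-06), and neither gene's libraries overlapped between the lines. FAM162A, a mitochondrial protein induced by HIF-1, overlapped only where the highest shHuR library (65.6 CPM) met the lowest shControl library (65.2 CPM), at means of 73.8 ± 7.22 against 59.5 ± 5.46 CPM (SD, n = 6 each; -0.31, edgeR adjusted p = 0.000187).

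**Figure D2:**
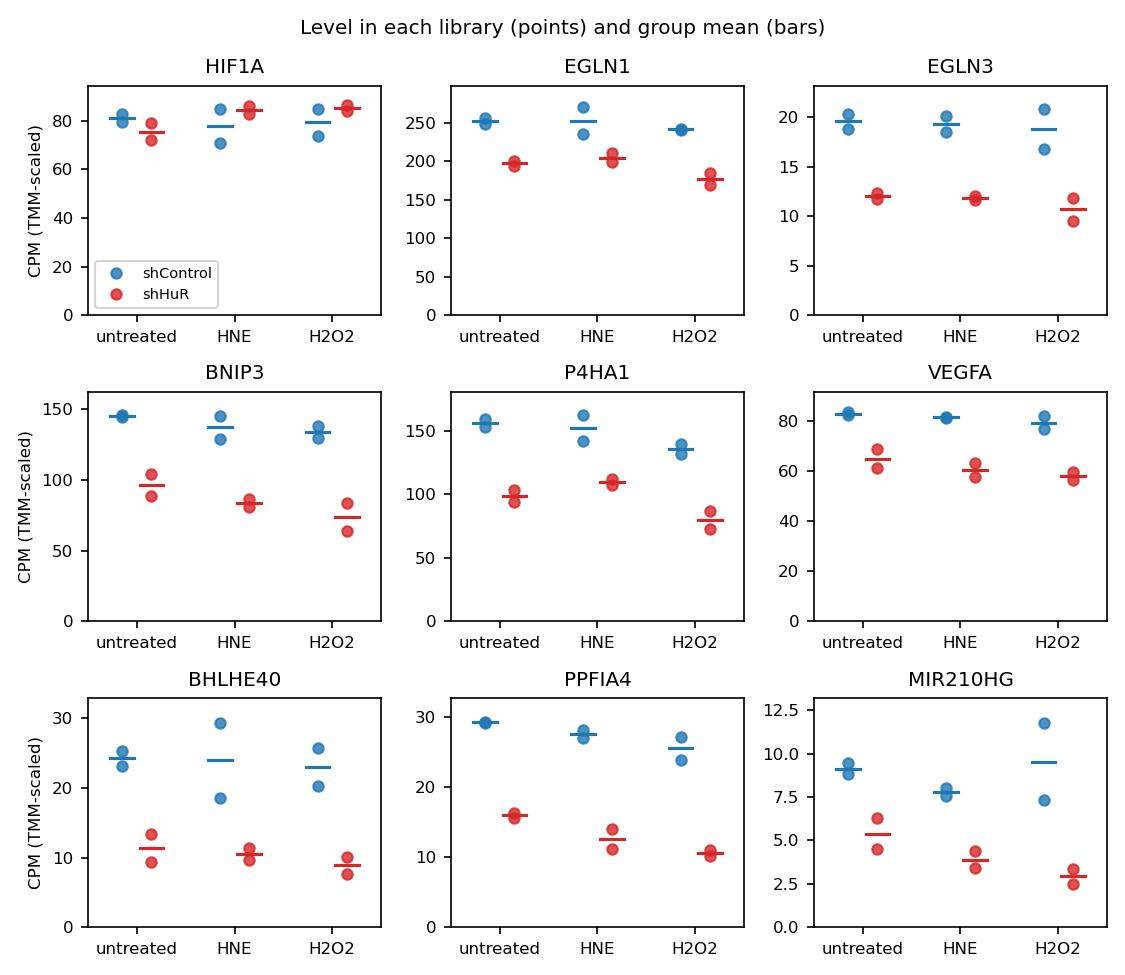
TMM-scaled CPM of 9 genes in each of the 12 libraries, by treatment, with shControl in blue and shHuR in red; points are libraries and bars group means, and each axis starts at 0. HIF1A libraries of the lines intermix, while for the other 8 genes every shHuR point lies below every shControl point.

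Of the 5 collagen and matrix enzymes, 4 were lower in shHuR cells. P4HA1, a catalytic subunit of the collagen prolyl hydroxylase, was at 153 and 159 CPM untreated, 162 and 141 CPM under HNE and 139.8 and 132 CPM under H2O2 in shControl, and at 103 and 93.5, 112 and 107, and 72.4 and 87.0 CPM in shHuR. The lines did not overlap, and the H2O2-treated shHuR replicates were the 2 lowest libraries (log2 fold change -0.63, SE 0.0581, edgeR adjusted p = 5.54e-07). P4HA2, the alternative catalytic subunit, had 33.4 ± 3.31 CPM on average over shControl libraries against 26.1 ± 3.20 CPM over shHuR libraries (SD, n = 6 each; -0.35, edgeR adjusted p = 0.000181). The lysyl hydroxylases parted: PLOD2 had 222 ± 9.94 against 163 ± 16.1 CPM (SD, n = 6 each; -0.45, edgeR adjusted p = 3.88e-06), while PLOD1 had 48.6 ± 3.21 against 51.1 ± 2.92 CPM (SD, n = 6 each; 0.07, 95% interval -0.03 to 0.18, edgeR adjusted p = 0.288). LOX, which crosslinks collagen outside the cell, had 11.1 ± 1.69 against 8.81 ± 1.04 CPM (SD, n = 6 each; -0.33, edgeR adjusted p = 0.0114), with overlapping lines.

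The 3 histone lysine demethylases were all lower. KDM3A was at 91.9 and 90.1 CPM untreated, 84.3 and 84.5 CPM under HNE and 89.4 and 82.9 CPM under H2O2 in shControl, and at 69.8 and 71.2, 73.3 and 76.5, and 60.5 and 65.6 CPM in shHuR. No library crossed between the lines (log2 fold change -0.33, SE 0.0481, edgeR adjusted p = 6.77e-05). KDM4B had 53.7 ± 2.56 CPM on average over shControl libraries against 43.1 ± 1.79 CPM over shHuR libraries (SD, n = 6 each; -0.32, edgeR adjusted p = 3.69e-05). KDM4C had 32.1 ± 1.89 against 28.0 ± 1.70 CPM (SD, n = 6 each; -0.20, edgeR adjusted p = 0.00443), and both also separated the lines without overlap.

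VEGFA, the vascular endothelial growth factor, was at 82.4 and 83.5 CPM untreated, 81.8 and 81.2 CPM under HNE and 76.8 and 81.9 CPM under H2O2 in shControl, and at 68.7 and 61.3, 63.1 and 57.8, and 56.5 and 59.8 CPM in shHuR. The shControl libraries lay close together and all shHuR libraries below them, a fall of 24.8% (log2 fold change -0.41, SE 0.0440, edgeR adjusted p = 3.11e-06). ADM, the secreted vasodilator peptide adrenomedullin, was not called (4.96 ± 1.56 against 4.24 ± 0.693 CPM, SD, n = 6 each; -0.21, edgeR adjusted p = 0.212). Its highest library was the HNE-treated shControl replicate 2, at 8.01 CPM, and with it left out the estimate was -0.09 (edgeR adjusted p = 0.559).

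Among the transcription regulators, BHLHE40 had the largest estimate of all 35 members. This repressor of the basic helix-loop-helix family was at 23.2 and 25.2 CPM untreated, 29.3 and 18.5 CPM under HNE and 20.3 and 25.7 CPM under H2O2 in shControl, and at 9.32 and 13.4, 11.3 and 9.59, and 10.1 and 7.69 CPM in shHuR. The highest shHuR library (13.4 CPM) was well below the lowest shControl library (18.5 CPM), a fall of 56.9% (log2 fold change -1.22, SE 0.119, edgeR adjusted p = 1.10e-06). ZNF395 had 65.1 ± 2.87 CPM on average over shControl libraries against 48.0 ± 4.15 CPM over shHuR libraries (SD, n = 6 each; -0.44, edgeR adjusted p = 1.08e-05). MXI1, a MYC antagonist, had 54.1 ± 7.08 against 44.2 ± 4.19 CPM (SD, n = 6 each; -0.30, edgeR adjusted p = 0.0127), and the 3 limma fits on log2 FPKM, which differed in pseudocount or filter, each lost the call (limma adjusted p from 0.0514 to 0.0929). RORA, a nuclear receptor, had 35.2 ± 4.82 against 30.7 ± 2.26 CPM (SD, n = 6 each; -0.19, edgeR adjusted p = 0.0681). RORA passed in 3 of the alternative fits. Among them were the fits without the second HNE-treated shControl replicate (-0.26) and without the first HNE-treated shHuR replicate (-0.23).

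Of the 9 remaining targets 8 were lower in shHuR cells, and ANKRD37 was not called. PPFIA4, a liprin scaffold protein, was at 29.2 and 29.3 CPM untreated, 27.0 and 28.1 CPM under HNE and 23.9 and 27.1 CPM under H2O2 in shControl, and at 16.3 and 15.6, 14.0 and 11.2, and 10.2 and 11.1 CPM in shHuR. It had the smallest adjusted p of the members, with lines far apart (log2 fold change -1.08, SE 0.0749, edgeR adjusted p = 2.27e-08). MIR210HG, the host transcript of the hypoxia microRNA miR-210, was at 8.82 and 9.45 CPM untreated, 7.57 and 8.01 CPM under HNE and 11.8 and 7.30 CPM under H2O2 in shControl, and at 6.27 and 4.51, 4.40 and 3.39, and 2.50 and 3.38 CPM in shHuR. All shHuR libraries were lower, and the untreated replicate at 6.27 CPM came closest to the control range (-1.14, SE 0.159, edgeR adjusted p = 4.50e-05). The mature microRNA was not analysed here.

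ANKZF1, a protein that frees stalled peptides from the ribosome, was at 59.5 and 57.7 CPM untreated, 53.0 and 59.4 CPM under HNE and 51.3 and 54.5 CPM under H2O2 in shControl, and at 39.3 and 35.5, 34.0 and 33.0, and 27.2 and 33.6 CPM in shHuR. A wide gap separated the lines (log2 fold change -0.73, SE 0.0574, edgeR adjusted p = 9.35e-08). NDRG1, a stress-responsive growth regulator, was at 49.5 and 39.5 CPM untreated, 47.8 and 40.4 CPM under HNE and 49.7 and 53.6 CPM under H2O2 in shControl, and at 31.9 and 33.6, 29.9 and 32.7, and 29.6 and 28.0 CPM in shHuR. Its shHuR libraries were tightly grouped below a more scattered control line (-0.59, SE 0.0749, edgeR adjusted p = 1.68e-05). DDIT4, an inhibitor of mTORC1 signalling also known as REDD1, was at 205 and 216 CPM untreated, 195 and 224 CPM under HNE and 241 and 211 CPM under H2O2 in shControl, and at 174 and 159, 151 and 130.3, and 116 and 143 CPM in shHuR. The lines did not overlap, with the highest control library and the lowest shHuR library both under H2O2 (-0.57, SE 0.0731, edgeR adjusted p = 1.94e-05).

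WSB1, a substrate receptor of a ubiquitin ligase, had 100.1 ± 4.82 CPM on average over shControl libraries against 73.7 ± 3.46 CPM over shHuR libraries (SD, n = 6 each; log2 fold change -0.44, edgeR adjusted p = 5.28e-07). HILPDA, a lipid droplet protein, had 42.4 ± 4.25 against 33.1 ± 4.14 CPM (SD, n = 6 each; -0.36, edgeR adjusted p = 0.00128). FUT11, a fucosyltransferase, had 18.6 ± 1.40 against 15.7 ± 1.33 CPM (SD, n = 6 each; -0.25, edgeR adjusted p = 0.0101). Libraries of the lines overlapped for HILPDA and FUT11 but not for WSB1. ANKRD37, the least abundant member, had an estimate of -0.42 with a wide interval (-0.86 to 0.03, edgeR adjusted p = 0.146). A difference was thus not detected, the interval leaves room for one, and the part of depth in this was not tested.

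The ACGTG form of the promoter motif and the line difference can be set side by side among the targets. The 14 targets with ACGTG in the window had a median log2 fold change of -0.45 and all were negative. The 6 targets with a window but no ACGTG had a median of -0.25, with 5 negative. The 7 targets without a window had a median of -0.41, and all were negative. Over tested genes the medians were 0.01 with ACGTG and 0.00 without it. Windows without ACGTG can still hold GCGTG, as those of KDM3A, PLOD1 and ADM do among the 6 targets.

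Within single treatments the line difference rested on 2 libraries a side. In untreated cells 15 of the 35 members were called, 14 lower and 1 higher (EGLN2), where 7.98% of all genes were called (4.48% lower, 3.5% higher). With HNE 20 were called, all lower, where the background was 8.27% (5.04% lower, 3.24% higher). With H2O2 21 were called, all lower, where the background was 7.19% (4.67% lower, 2.52% higher). The 13 genes EGLN1, EGLN3, BNIP3, AK4, P4HA1, PLOD2, KDM4B, VEGFA, BHLHE40, NDRG1, WSB1, PPFIA4 and ANKZF1 were called lower in all 3 treatments, which was true of 1.88% of all genes. The estimate was negative in all 3 treatments for 29 members. Of all genes, 50.6% had a negative estimate in untreated cells, 51.1% with HNE and 50.3% with H2O2. The share of all genes negative in all 3 treatments was not counted.

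Single libraries moved these counts. The untreated count was 5 without replicate 1 or replicate 2 of the untreated shControl group or replicate 2 of the untreated shHuR group, fits that called 1.63%, 1.48% and 1.55% of all genes. For HNE, dropping the first HNE-treated shHuR replicate left 8 calls (1.63% of all genes) and dropping the second left 4 (0.999% of all genes). There were 8 when the 4 compared libraries were fitted alone, where 1.33% of all genes were called. The H2O2 count was 11 without replicate 1 of the H2O2-treated shHuR group, where 1.76% of all genes were called. By contrast, the average over treatments called 27 to 29 members whichever library was left out.

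**Figure D3:**
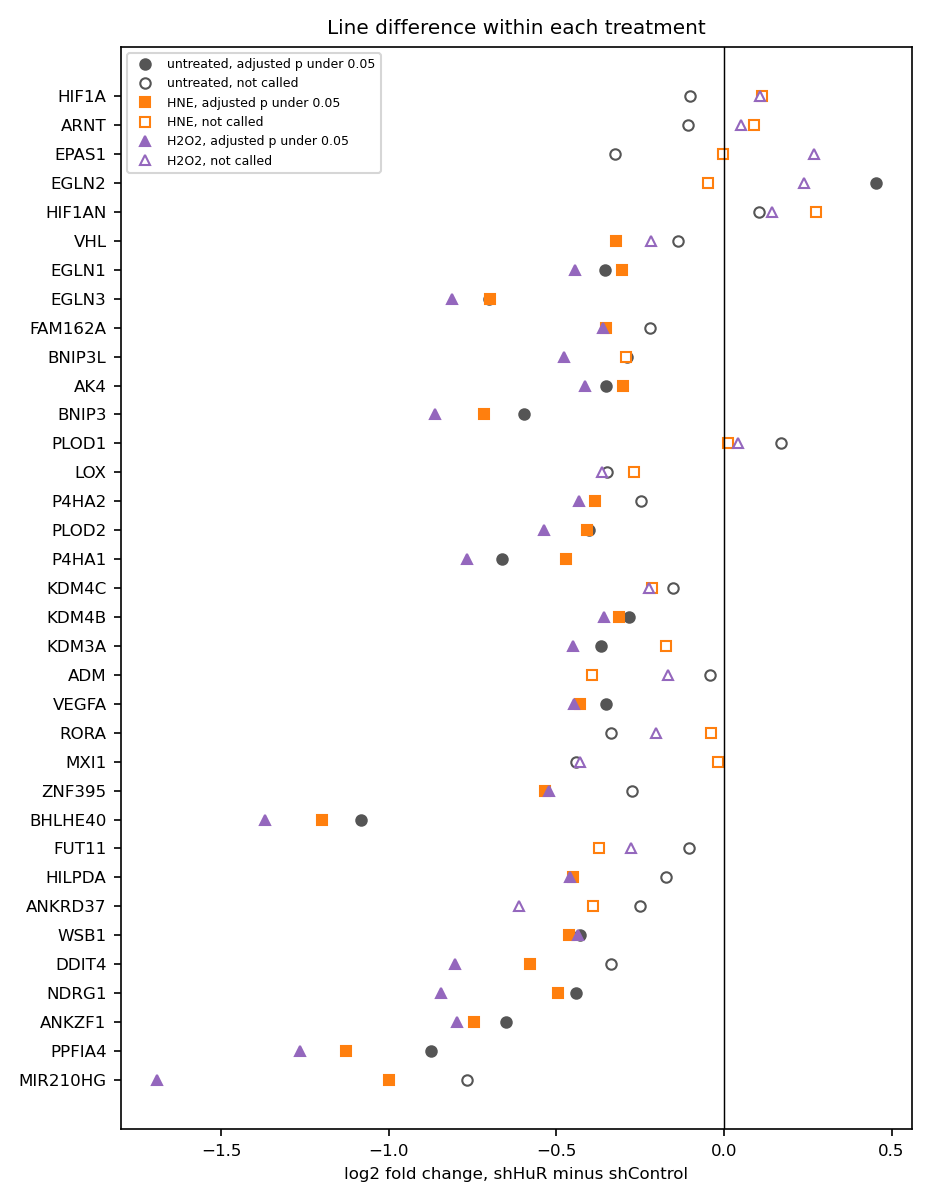
Log2 fold change of each of the 35 genes, shHuR minus shControl, in untreated (circles), HNE-treated (squares) and H2O2-treated cells (triangles), with filled symbols for an adjusted p under 0.05. MIR210HG spreads widely, from -0.77 untreated to -1.69 with H2O2, while WSB1 stays between -0.43 and -0.46.

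The estimates of the line difference by treatment varied among the genes. The main tests of its change with HNE or H2O2, given below, called no member (0% of all genes). The values that follow are therefore descriptive. For MIR210HG it was -0.77 (SE 0.232, edgeR adjusted p = 0.0589) in untreated cells, between -1.52 and -0.48 (95% interval, edgeR adjusted p = 0.0222) with HNE and -1.69 (SE 0.245, edgeR adjusted p = 0.00112) with H2O2. For DDIT4 it was -0.34 (edgeR adjusted p = 0.0687), -0.58 (edgeR adjusted p = 0.00573) and -0.80 (edgeR adjusted p = 0.000706) in the same order. NDRG1 went from -0.44 to -0.49 and -0.84, and PPFIA4 from -0.87 to -1.13 and -1.26. WSB1 was nearly level at -0.43, -0.46 and -0.43. KDM3A was lower in untreated cells (-0.37, edgeR adjusted p = 0.00653) and with H2O2 (-0.45, edgeR adjusted p = 0.00190) and was not called with HNE (-0.17, edgeR adjusted p = 0.148).

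Whether the treatments themselves moved the genes was tested in both lines together and in each. No member was called for HNE, where 0.247% of all genes were, and 5 had an unadjusted p under 0.05 (12.3% of all genes did). ADM had the largest HNE estimate, 0.51 (SE 0.159, unadjusted p = 0.00641, edgeR adjusted p = 0.233), after levels of 3.97 and 4.26 CPM in untreated and 5.24 and 8.01 CPM in HNE-treated shControl cells, and 4.31 and 3.70 against 4.64 and 5.40 CPM in shHuR cells. All 4 HNE-treated libraries were above the untreated libraries of both lines. Within each line no member was called for HNE either, where 0.0187% of all genes were in shControl and 0.075% in shHuR, and an unadjusted p under 0.05 was found for 3 members in shControl (11.7% of all genes) and 5 in shHuR (8.95% of all genes). With the first HNE-treated shControl replicate left out, 4 of the 35 members were called in shControl, where 5.24% of all genes were.

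For H2O2 no gene of the table was called on average (0% of all genes). The estimate was negative for 30 of the 35 members and for 50.2% of all genes tested, with medians of -0.10 and -0.00. The members were measured in the same libraries, so their signs are not independent. At an unadjusted p under 0.05 there were 10 members, all with negative estimates, where 5.45% of all genes reached this. They were EGLN1, BNIP3, FAM162A, P4HA1, P4HA2, PLOD2, KDM3A, HILPDA, PPFIA4 and ANKZF1. P4HA1 (-0.25, SE 0.0596, unadjusted p = 0.000876) and PPFIA4 (-0.37, SE 0.0884, unadjusted p = 0.000771) had the smallest of these p, and edgeR's adjusted p was 0.900 for both. In shControl cells 2 members had an unadjusted p under 0.05 and the median estimate was -0.05 (4.34% of all genes reached this p). In shHuR cells 13 did and the median was -0.16 (3.37% of all genes), with no adjusted call in either line, where the background was 0%. HNE and H2O2 estimates share the untreated libraries of each line.

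The test of the difference itself, the H2O2 estimate in shHuR minus that in shControl, called no member and no gene at all. The difference was negative for 29 of 35 members, with a median of -0.13, against 50.4% of all genes negative. At an unadjusted p under 0.05 were EPAS1 (0.59), NDRG1 (-0.40), DDIT4 (-0.47), MIR210HG (-0.92) and PPFIA4 (-0.39), 5 of 35 where 3.62% of all genes were. For HNE the difference was negative for 23 of 35 members, with a median of -0.06, against 50.5% of all genes negative. There EGLN2 (-0.50), MXI1 (0.42) and ZNF395 (-0.26) had an unadjusted p under 0.05, where 6.73% of all genes did, and none passed after adjustment. DESeq2 and limma also called no member in any of these treatment and difference tests, and edgeR without a filter on low counts called 1 for HNE (1.63% of all genes), 3 for H2O2 (0.571%), 4 for H2O2 in shHuR (0.158%) and 1 for the H2O2 difference (0.173%).

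The members can also be reduced to 1 value per library. The median over the 35 genes of the log2 level relative to the shControl mean lay between -0.03 and 0.04 in the 6 shControl libraries. In shHuR it was -0.24 and -0.33 untreated, -0.34 and -0.32 with HNE, and -0.48 and -0.42 with H2O2. The H2O2-treated shHuR replicates were the lowest pair. The median of all tested genes was 0.00 in every library to 2 decimals, a value largely set in advance because the scaling between libraries centres the typical gene. Likewise, shControl libraries lie near their own mean by construction.

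**Figure D4:**
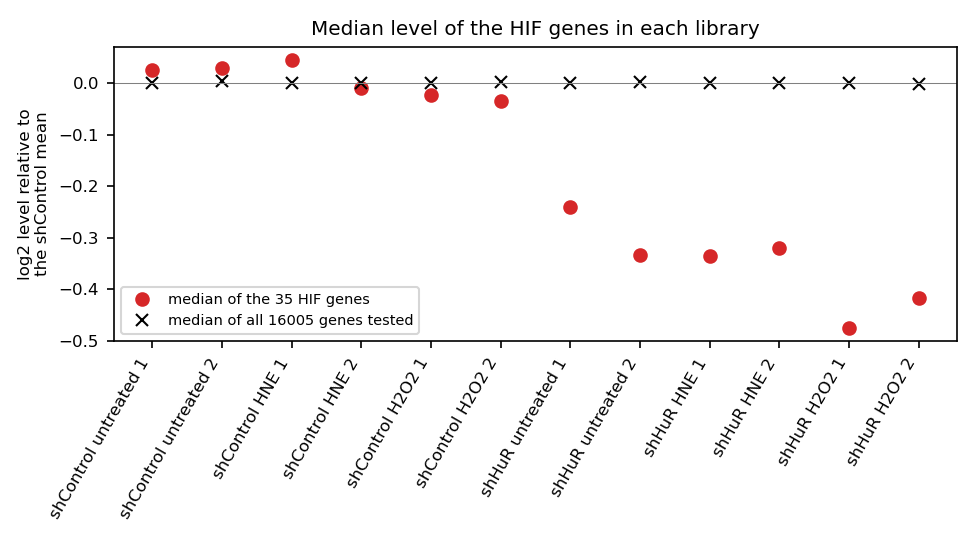
Median log2 level of the 35 HIF genes (red circles) and of all genes tested (crosses) relative to the shControl mean in each of the 12 libraries. The 6 shControl libraries lie between -0.03 and 0.04 and the 6 shHuR libraries between -0.24 and -0.48.

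Other genes of the pathway were read from lists drawn up with earlier results known. Of 21 partners and regulators of HIF, 20 were tested and 5 were called between the lines on average, 2 higher and 3 lower in shHuR cells, with a median of 0.05. That share lay below the 29.9% of all genes called. TCEB1, which encodes the elongin C subunit of the VHL complex, was higher (0.32, edgeR adjusted p = 0.000364). ING4 (-0.35, edgeR adjusted p = 0.00467) and GNB2L1, which encodes the scaffold protein RACK1 (-0.22, edgeR adjusted p = 0.000144), were lower. Of 39 further reported HIF targets, 36 were tested and 17 were called, 13 lower and 4 higher, with a median of -0.12, where 15.9% of all genes were called lower and 14.1% higher. STC1, a secreted glycoprotein hormone, was at 2.18 ± 0.573 CPM on average over shControl libraries against 0.725 ± 0.316 CPM over shHuR libraries (SD, n = 6 each; -1.57, edgeR adjusted p = 0.000196). CXCR4, a chemokine receptor, was at 8.03 ± 0.616 against 3.90 ± 0.474 CPM (SD, n = 6 each; -1.04, edgeR adjusted p = 5.70e-07). KLHL24 followed at 53.1 ± 3.69 against 34.5 ± 2.46 CPM (SD, n = 6 each; -0.62, edgeR adjusted p = 8.58e-07). These 3 had the largest differences of the list. P4HB went the other way, at 241 ± 14.7 against 298 ± 12.7 CPM (SD, n = 6 each). Every shHuR library of P4HB was above every shControl library, a pattern found in 5.25% of all genes.

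HuR is known to bind AU-rich stretches of 3′ untranslated regions, so the members' regions were searched for ATTTA and the longer TTATTTATT in the GENCODE transcripts on GRCh38. The longer element was found in 3 of 34 members (8.82%) and in 9.22% of 13534 tested genes. It occurs in HIF1A, in RORA and in VEGFA, and the following stretches show it in context, with every copy in capitals, in a gene that was not called and a gene that was lower.
HIF1A: tgcacctttTTATTTATTTATTtttgg
VEGFA: tgttatcatTTATTTATTggtgctact
The HIF1A stretch holds 2 overlapping copies. Counts of ATTTA varied widely among members that were lower in shHuR cells. BHLHE40, PPFIA4, DDIT4 and ANKZF1 held none, while LOX held 12, PLOD2 and AK4 11 each, and VEGFA 10. HIF1A, which was not called, held 8, and EGLN2, which was higher on average, held none. A link between these counts and the line difference was not tested. The members' median was 2.1 ATTTA per kilobase, against 1.6 over tested genes.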

How the data were processed

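The authors deposited estimated counts per gene symbol and FPKM values for 12 libraries, made against GRCh37 with cutadapt 1.8, Bowtie2 2.2, TopHat2 2.1, Cufflinks 2.2, Cuffnorm and Cuffdiff, per the submitters' processing notes. The roles of these tools, the annotation and the use of strand in counting are not given in the sources used here, so reads of a gene and its antisense partner may be mixed. Of the deposited counts 2.25% were not whole and all were rounded. Members, gene lists and motifs were chosen with earlier results of these data known.

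Genes passing filterByExpr by group (minimum count 10) were scaled by TMM (factors 0.965 to 1.03) and tested with edgeR 4.0.16 in R 4.3.3, by quasi-likelihood tests on 6 group means, or with treatment or line as covariate for averages, and Benjamini-Hochberg adjustment over all genes tested, with a threshold of 0.05. The treatment averages used the 8 compared libraries. Fold changes are shHuR minus shControl or treated minus untreated. CPM values use the scaled library sizes, and ± is the SD over libraries. The tests were checked on simulated data. For the tests on 6 group means, p-values measure the spread between 2 replicates a group. For the averages, fitted without an interaction, the spread also takes in how the line or treatment difference varied between groups. Precision covers counting error and the spread so measured only. Alternatives were DESeq2 1.42.0, other scalings and filters, the replicate number as a block, limma 3.58.1 on log2 FPKM with a pseudocount of 1 or 0.1, fits to the compared groups only, and fits lacking each library in turn.

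Every member was named. CPM in all libraries was given for subunits, EGLN1, EGLN2, EGLN3, VHL, the member with the largest line difference in each role, and called members with a log2 change of at least 0.5. Of further lists at most 3 genes were named for the size of their change, and P4HB for its opposite direction.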

Additional observations from a re-analysis of the deposited data

Results flagged for a closer look

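In 7 of the 70 pairs of a member and a line, 1 library lay far from the other 5 relative to the range. The limit used is passed about 1 time in 20 by chance among 6 like libraries. Here each set of 6 mixes 3 treatments and the members share libraries, so that rate need not hold. Replicate 2 of the HNE-treated shControl group was the distant library for LOX (7.89 CPM, others 11.0 to 12.7), ADM (8.01 CPM, others 3.97 to 5.24) and MXI1 (40.3 CPM, others 53.9 to 59.7). For KDM4B it was replicate 1 of the same group (48.6 CPM, others 54.2 to 55.8). These 2 replicates also differed most from each other, with a chi-square per degree of freedom of 21.5, where the other groups had 2.93 to 10.4. H2O2-treated shControl libraries were low for VEGFA (replicate 1, 76.8 CPM, others 81.2 to 83.5) and WSB1 (replicate 2, 90.5 CPM, others 100.2 to 103). EGLN3 was low in replicate 1 of the H2O2-treated shHuR group (9.58 CPM, others 11.6 to 12.4). VEGFA, WSB1, KDM4B and EGLN3 kept separate lines with these libraries included. With its distant library left out, the average line difference (log2, shHuR minus shControl) was -0.39 for LOX (reported -0.33), -0.39 for MXI1 (-0.30) and -0.33 for KDM4B (-0.32). It was -0.41 for VEGFA (-0.41), -0.46 for WSB1 (-0.44) and -0.69 for EGLN3 (-0.74), and these 6 stayed called. ADM went from -0.21 to -0.09 and was not called either way (edgeR adjusted p = 0.559).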

How the results depend on the processing

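Of 253 alternative values for the counts of members called, 239 were within 1.5 times the reported count. The line difference averaged over treatments called 27 to 29 members with each library left out. Leaving out 1 library gave 5 to 21 for untreated cells, 4 to 20 for HNE, 11 to 24 for H2O2, 0 to 4 for HNE in shControl and 0 to 2 for the HNE difference between lines. The 4 and the 2 both came when the first HNE-treated shControl replicate was left out, where 5.24% and 0.531% of all genes were called. The line count with HNE was 8 by limma on log2(FPKM + 1) with no filter (3.43% of all genes) and 8 with the compared groups alone (1.33%). With no filter on low counts edgeR called 1 member for HNE, 3 for H2O2, 4 for H2O2 in shHuR and 1 for the H2O2 difference between lines. Library size alone turned the split of all genes in the line average to 2604 higher and 2161 lower, from 2249 and 2538, while the members were still 2 higher and 26 lower. The causes were not tested.

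With a replicate block the line average called 28 members, untreated 15, HNE 19 and H2O2 20. Without the block these counts were 28, 15, 20 and 21, where 29.9%, 7.98%, 8.27% and 7.19% of all genes were called. The share of all genes called with the block is not given here, so the block counts have no background of their own. Replicate numbers do not pair the samples: of 15 pairs of groups, deviations of replicates with the same number correlated above 0.1 in 2, with a range of -0.11 to 0.13.

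Of 735 alternative line differences of single members, 717 were the same in direction and call, 9 lost and 3 gained the call. The 6 that changed sign were of genes near 0 that were not called: EPAS1 at 0.00048 with library size alone, and from -0.076 to 0.052 over fits that each lacked 1 library, 3 of them positive, and ARNT from -0.026 to 0.044 over such fits, 2 of them negative. ANKRD37, ADM and CA9 were low in level, and whether depth limited their results was not tested. Having 2 replicates a group limits the treatment and difference tests.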
